A study of Danio rerio with 4 samples.

Results

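The signal transducers and activators of transcription (STATs) are the transcription factors that carry cytokine and interferon signals from the cell surface to the nucleus. Their transcripts were examined in hematopoietic stem and progenitor cells (HSPCs) sorted from zebrafish kidney marrow, the site of adult blood formation in fish. With earlier results of these data known, members were chosen by gene symbol, as stat followed by a number from 1 to 6. A paralog suffix (a or b, or a point and a number) was allowed. This rule found 8 of the 32434 genes in the table: stat1a, stat1b, stat2, stat3, stat4, stat5.1, stat5.2 and stat6. All 8 were among the 17242 genes with more than 5 reads over the 4 libraries, which were the genes tested.

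There were 2 libraries from fish of a tet2 mutant line (tet2 m/m) and 2 from wild-type fish (tet2 wt/wt), with no other treatment. Tet2 oxidizes methylated cytosine in DNA, and the line carries a small deletion made with zinc finger nucleases that disrupts the catalytic activity of the enzyme. The fish were 4 months old by the sample titles and 15 months old by the sample descriptions, and the study describes its RNA comparison at the age in the titles. The cells were sorted by light scatter, and the labels call them marrow cells. In describing its methylation data, the study calls the pools biological replicates, and part of the sorted cells served for RNA. The labels do not say that the replicates came from separate animals, so the spread between these libraries may be in part technical. The p-values of the gene fits rest on that spread and, with so few libraries, also on variance estimated from other genes.

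In the textbook pathway, a cytokine joins its receptor chains, Janus kinases (JAKs) bound to those chains are activated, and they phosphorylate STAT proteins, which pair and enter the nucleus. STAT2 with its partner Irf9 answers type I interferon. STAT3 answers cytokines of the interleukin 6 group and granulocyte colony-stimulating factor, STAT4 answers interleukin 12, STAT5 answers erythropoietin, thrombopoietin and interleukins 2 and 3, and STAT6 answers interleukins 4 and 13. Suppressors of cytokine signaling (SOCS) are themselves STAT targets and switch the kinases off. Zebrafish carry paralogs of some members, such as the stat5 pair. RNA levels say nothing of the phosphorylation that activates the proteins.

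Total counts ranged from 8838603 to 10710913 per library. Levels are given in CPM, the count scaled to a common library size with TMM (trimmed mean of M values) factors. The limit that a count of 0 sets was 0.271 to 0.396 CPM, depending on the library, for counting error only. The targeted gene itself, tet2, was measured at 33.8 and 24.4 CPM in wild-type replicates 1 and 2 and at 23.7 and 25.5 CPM in mutant replicates 1 and 2 (log2 fold change -0.23 ± 0.22 SE, edgeR adjusted p = 0.683). A small deletion need not lower the level of its transcript, so tet2 RNA does not check the labels. The first principal component, with 59.9% of the variance, separated the genotypes. It placed mutant replicate 2 farther from the wild-type libraries than mutant replicate 1. Markers of several blood cell types differed between the libraries. The summed level of 8 neutrophil markers was 3880 and 2622 CPM in the wild-type and 3371 and 6683 CPM in the mutant libraries, and that of 8 B cell markers was 403 and 385 against 249 and 155 CPM. For 6 red cell genes, the sums were 40788 and 64560 against 22100 and 16640 CPM. With edgeR 0 of these 6 were called, and the list median was -0.89 on the log2 scale with 0 of 6 positive. DESeq2 called 1 of them lower, beside 0.69% of all tested genes. For 11 stem and progenitor genes the sums were 2271 and 2212 against 1298 and 1177 CPM. The stem and progenitor sum was carried by cmyb, at 1624 and 1592 against 496 and 608 CPM. This gene was the 1 of 11 called (lower). The newer form of the edgeR fit, described below, called 0 of 11 lower, beside 0.626% of all tested genes. The list median was -0.13 on the log2 scale with 4 of 11 positive. In bulk RNA of this kind, fewer cells of a type and less RNA per cell cannot be told apart.

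One STAT gene was higher in tet2 m/m HSPCs. The gene stat1b (ENSDARG00000076182) was 3.05-fold higher in the mutant than in the wild-type libraries. The other 7 members did not pass the test in either direction, and the libraries of both genotypes overlapped for each of them. Calls required an edgeR adjusted p under 0.05 and a log2 fold change beyond 1 in either direction. By this rule 311 of 17242 genes were called higher (1.8%) and 328 lower (1.9%), 3.71% in all. Of the STAT members, 1 of 8 was called higher and 0 of 8 lower. At an unadjusted p under 0.05, a level that 8.73% of tested genes reached as higher and 8.37% as lower, 0 members were lower with edgeR. DESeq2 also called 0 lower, beside 0.69% of tested genes. The median log2 fold change of the 8 members was -0.08, beside -0.01 over all tested genes, with 3 members positive and 5 negative.

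**Figure D1:**
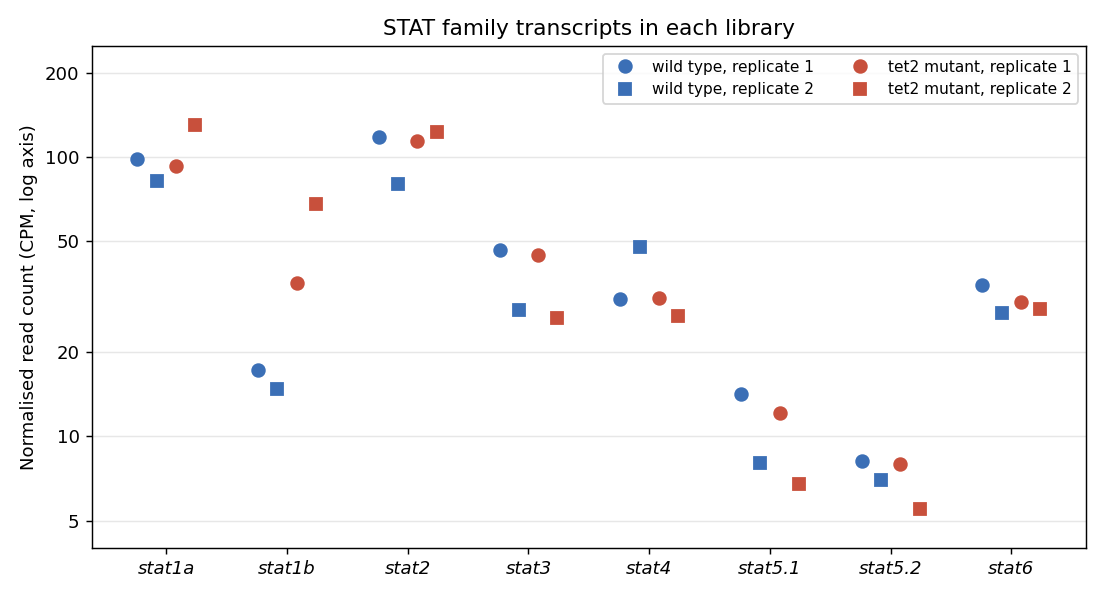
Normalised read counts (CPM, log axis) of the 8 STAT genes, with 1 point per library, blue for wild type, red for tet2 mutant, circles for replicate 1 and squares for replicate 2. Both mutant libraries lie above both wild-type libraries for stat1b only, at 35.5 and 67.9 against 17.3 and 14.8 CPM. For stat3, stat5.1, stat5.2 and stat6 both squares lie below both circles.

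The level of stat1b was 17.3 and 14.8 CPM in wild-type replicates 1 and 2, from 170 and 112 reads. It was 35.5 and 67.9 CPM in mutant replicates 1 and 2, from 347 and 752 reads. Thus, the lowest mutant library was above the highest wild-type library, and the mutant libraries differed more from each other than the wild-type libraries did. The log2 fold change was 1.61 ± 0.24 (SE, n = 2 libraries per genotype, edgeR quasi-likelihood test with Benjamini-Hochberg adjustment, adjusted p = 2.16e-05). Between libraries of the same replicate number, the log2 ratio was 1.04 for replicate 1 and 2.20 for replicate 2. Groups that did not overlap were common in this table. Over all tested genes the mutant libraries were both above the wild-type libraries for 23.1%, both below for 21.7%, and either way for 44.8%. Among the members stat1b was the 1 of 8 without overlap.

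The call of stat1b was also made by DESeq2 with the replicate block (log2 fold change 1.61 ± 0.37 SE, adjusted p = 0.00144; 1.3% of tested genes called, 0.609% as higher) and by edgeR without the replicate block (1.69, adjusted p = 0.0135). By all 3 fits, the first one included, 1.1% of tested genes were called, 0.522% as higher. The call was lost in the newer form of the edgeR quasi-likelihood fit, where the log2 fold change was 1.61 and the adjusted p was 0.0520. That form called 0.516% of tested genes higher and 0.626% lower. Its size depended most on mutant replicate 2: without that library, when 2.59% of tested genes were called, 1.2% as higher and 1.39% as lower, the log2 fold change was 1.14 (edgeR adjusted p = 0.00491), and without mutant replicate 1 it was 2.07. With either wild-type library left out it was 1.78 or 1.57. All fits with a library left out also dropped the replicate block, so the like value from all 4 libraries is 1.69. stat1b was called in each of these fits with a library left out, in which the lone library of a genotype is assumed to vary like those of the other.

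**Figure D2:**
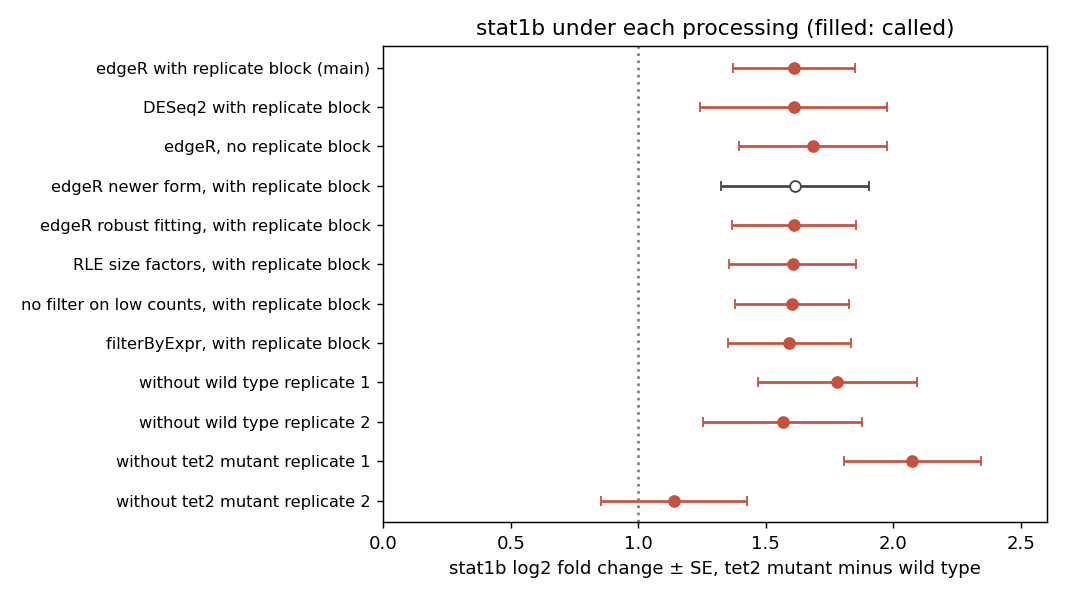
Log2 fold change of stat1b, tet2 mutant minus wild type, with its SE, in the fit described and in 11 alternatives. Filled points passed the adjusted p and the fold threshold (dotted line at 1), and the open point is the newer edgeR form with an adjusted p of 0.0520. The estimates run from 1.14 without mutant replicate 2 to 2.07 without mutant replicate 1, both from fits that also dropped the replicate block.

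The paralog stat1a (ENSDARG00000006266) did not pass the test. Its level was 98.6 and 82.3 CPM in wild-type replicates 1 and 2 and 92.7 and 131 CPM in mutant replicates 1 and 2. Mutant replicate 1 lay between the wild-type libraries and mutant replicate 2 above them. The log2 fold change was 0.29 ± 0.22 (SE, edgeR adjusted p = 0.584). Leaving out each library in turn gave 0.03 to 0.53, all of it positive and none of it called.

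Comparing the paralogs within a library removes depth and scaling. Reads of stat1b made up 14.9% of all stat1a and stat1b reads in wild-type replicate 1 (95% Wilson interval 13.0 to 17.1%) and 15.2% in wild-type replicate 2 (12.8 to 18.0%). They made up 27.7% in mutant replicate 1 (25.3 to 30.2%) and 34.2% in mutant replicate 2 (32.2 to 36.2%). The intervals of the wild-type libraries overlapped each other, those of the mutant libraries overlapped neither the wild-type ones nor each other, and all of them cover counting error only. For every 100 stat1a reads there were 17.6 and 17.9 stat1b reads in the wild-type libraries and 38.3 and 51.9 in the mutant libraries. The mean share was 15.1% ± 0.197 (SD, n = 2) in wild type and 30.9% ± 4.59 (SD, n = 2) in mutant, a difference of 15.9 percentage points. An exact two-sided permutation test over the 4 libraries gave p = 0.333, which is the smallest p that 2 against 2 libraries allow. Since the genes can differ in length and in how well their reads map, the share compares libraries and does not give the ratio of transcripts.

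**Figure D3:**
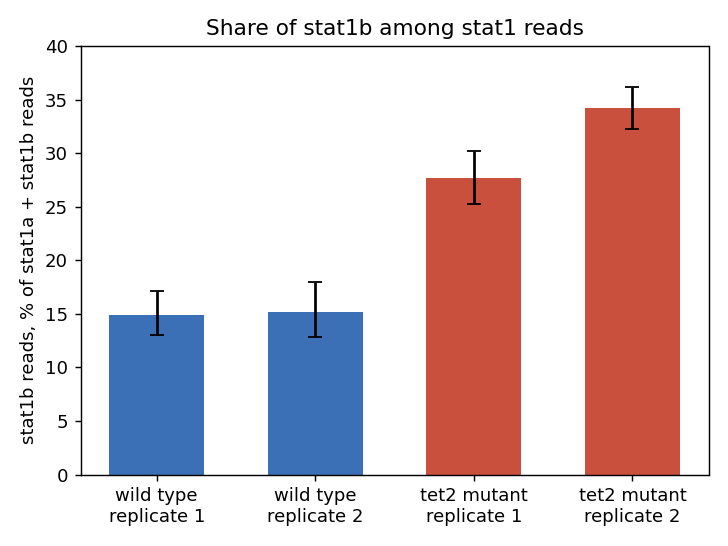
Share of stat1b reads among all stat1a and stat1b reads in each library, in percent, with 95% Wilson intervals that cover counting error only. The wild-type libraries stand at 14.9 and 15.2%, and the mutant libraries at 27.7 and 34.2%.

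Over the whole family, the summed level was 369 and 296 CPM in the wild-type and 369 and 416 CPM in the mutant libraries. Without stat1b it was 352 and 281 against 334 and 348 CPM, with mutant libraries inside the wild-type range. The reads of stat1b were 4.69 and 4.99% of all STAT reads in wild type and 9.62 and 16.3% in mutant. In tet2 m/m HSPCs stat1b therefore took a larger part of a family sum that was otherwise within the range of the wild-type libraries.

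In the type I interferon branch, stat2 (ENSDARG00000031647), was measured at 119 and 80.1 CPM in wild-type replicates 1 and 2 and at 114 and 123 CPM in mutant replicates 1 and 2. Wild-type replicate 2 was the low library, and the other 3 lay close together. The log2 fold change was 0.28 ± 0.22 (SE, edgeR adjusted p = 0.592), and it fell to -0.01 without wild-type replicate 2. Its DNA-binding partner irf9 was at 25.8 and 21.4 CPM in wild type against 31.4 and 37.7 CPM in mutant, without overlap, and was not called (0.55 ± 0.21, edgeR adjusted p = 0.151).

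stat3 (ENSDARG00000022712), the factor of the interleukin 6 group and of granulocyte colony-stimulating factor, was at 46.7 and 28.4 CPM in wild-type replicates 1 and 2 and at 44.8 and 26.5 CPM in mutant replicates 1 and 2. Within each replicate number the genotypes were close, with log2 ratios of -0.06 and -0.10, whereas the replicates of each genotype were far apart. Mutant and wild type differed by -0.08 ± 0.20 on the log2 scale (SE, edgeR adjusted p = 0.910). It ran from -0.51 to 0.30 when each library was left out in turn.

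For stat4 (ENSDARG00000028731), known in mammals for the interleukin 12 response of T and natural killer cells, the values were 31.1 and 47.6 CPM in wild-type replicates 1 and 2. In mutant replicates 1 and 2 they were 31.2 and 27.1 CPM. Wild-type replicate 2 was the high library, and wild-type replicate 1 fell between the mutant libraries. Among the 7 members not called, stat4 had the lowest log2 fold change, -0.41 ± 0.22 (SE, edgeR adjusted p = 0.351), and it stayed below 0 with each library left out (-0.73 to -0.10). The summed level of 7 T and natural killer cell markers was 11.8 and 13.1 CPM in wild type against 18.5 and 17.2 CPM in mutant. With edgeR 0 of 7 were called, and 1 was higher at an unadjusted p under 0.05, beside 8.73% of all tested genes. In the RefSeq annotation of the GRCz12tu assembly, which is not the build used for counting, stat4 and stat1b are adjacent protein-coding genes. Between libraries of replicate number 2 they differed in opposite directions, with log2 ratios of -0.81 for stat4 and 2.20 for stat1b. Between those of number 1 the ratios were 0.0057 and 1.04. A long noncoding RNA overlaps each of these genes in that annotation, and reads of an overlapping gene could not be separated.

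Of the stat5 pair, which serves the erythropoietin, thrombopoietin and interleukin 2 receptors, stat5.1 (ENSDARG00000019392, current symbol stat5a) was at 14.2 and 8.05 CPM in wild-type replicates 1 and 2. It was at 12.2 and 6.77 CPM in mutant replicates 1 and 2, from 61 to 139 reads per library. Its paralog stat5.2 (ENSDARG00000055588, stat5b) was at 8.15 and 6.99 CPM in wild type against 7.98 and 5.51 CPM in mutant, from 53 to 80 reads. For stat5.1, libraries with the same replicate number lay nearer to each other than libraries of the same genotype. The log2 fold change was -0.23 ± 0.27 for stat5.1 and -0.18 ± 0.30 for stat5.2 (SE, edgeR adjusted p = 0.750 and 0.843). The share of stat5.1 in the reads of the pair was 63.5 and 53.5% in wild type and 60.4 and 55.1% in mutant, so that, unlike for stat1a and stat1b, the genotypes overlapped. stat6 (ENSDARG00000015902), the factor of interleukins 4 and 13, had the smallest ratio of highest to lowest library among the members, with 34.7 and 27.7 CPM in wild type against 30.3 and 28.5 CPM in mutant. Both mutant values lay between the wild-type values (-0.08 ± 0.21, edgeR adjusted p = 0.910).

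A second pattern, by replicate number and not by genotype, was noticed in part of the family after the values were seen. For 4 of the 8 members, stat3, stat5.1, stat5.2 and stat6, both libraries with replicate number 2 were below both with number 1, as for 17.3% of all tested genes. The fit with genotype and replicate number gave log2 differences of replicate 2 from replicate 1. These were -0.74 ± 0.20 (SE) for stat3 and -0.83 ± 0.27 for stat5.1, with genotype differences of -0.08 and -0.23 beside them. For stat5.2 and stat6 the differences by replicate number were smaller, at -0.38 ± 0.30 and -0.20 ± 0.21. Those of stat3 and stat5.1 did not pass the test (edgeR adjusted p = 0.0960 and 0.215), and no member was called by replicate number. For stat1b the difference by replicate number was 0.41 ± 0.24, and the libraries of the 2 genotypes moved oppositely: the log2 ratio of replicate 2 to replicate 1 was -0.23 in wild type and 0.94 in mutant. The labels do not say what a shared replicate number stands for, and the pattern as a whole was not tested. Kidney tubule markers summed to 414 and 305 CPM in wild-type replicates 1 and 2, against 353 and 184 CPM in mutant. Thrombocyte markers summed to 156 and 100 against 272 and 149 CPM. Their list medians by replicate number were -2.05 and -0.81, beside -0.31 to 0.25 for the other cell type lists. Only 3 of 7 kidney tubule markers passed filterByExpr, a low-count filter. The part of a changed cell mixture in the replicate pattern was not tested.

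**Figure D4:**
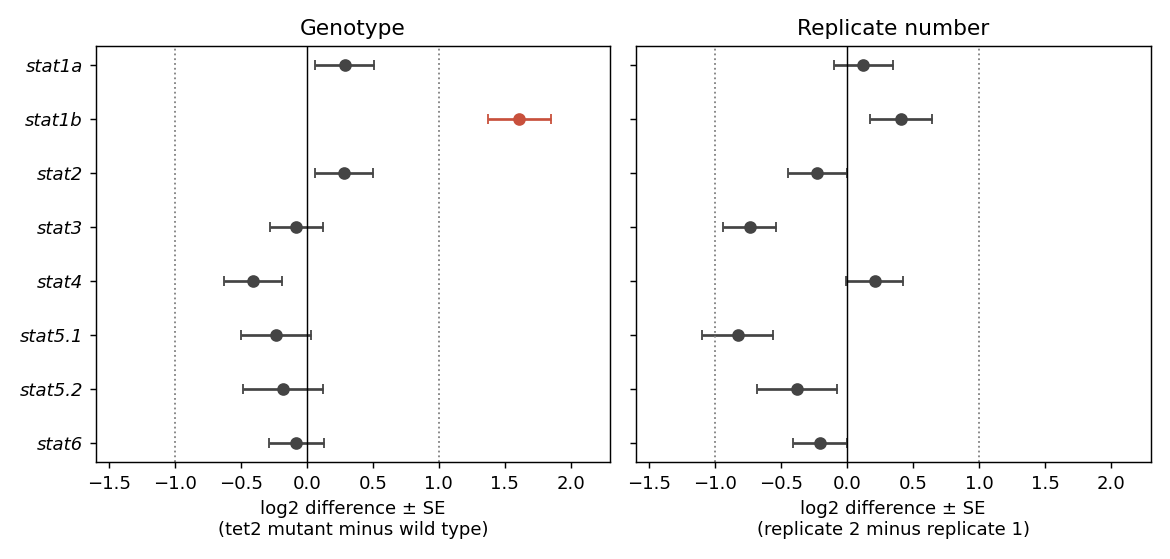
Log2 difference ± SE for each STAT gene, on the left between genotypes (tet2 mutant minus wild type) and on the right between replicate numbers (replicate 2 minus replicate 1), from the same fit, with dotted lines at -1 and 1. On the left stat1b (red, the called member) stands at 1.61 and the other 7 lie between -0.41 and 0.29, and on the right stat5.1 and stat3 lie lowest, at -0.83 and -0.74.

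Single receptors that signal through these STATs also differed by replicate number. Both libraries with number 2 were below both with number 1 for 10 of 30 cytokine receptors coupled to STATs other than interferon receptors, beside 17.3% of all tested genes. For interferon receptors this held for 2 of 7, and so short a list cannot be set apart from that share. In the order interferon receptors and other receptors, the medians follow. The list medians by replicate number were -0.00035 and -0.38. csf3r, the receptor for granulocyte colony-stimulating factor, was at 181 and 59.5 CPM in wild-type replicates 1 and 2 and at 117 and 25.4 CPM in mutant replicates 1 and 2. The difference by replicate number was -1.90 ± 0.23 (SE) on the log2 scale, and the difference by genotype was -0.92 ± 0.22 (edgeR adjusted p = 0.00869), under the fold threshold. With all 4 libraries and no replicate block, the genotype difference of csf3r was -0.76 (edgeR adjusted p = 0.612). Omitting single libraries, again with no block, moved it widely. It became -1.35 on omitting wild-type replicate 2 and -2.25 on omitting mutant replicate 1. Its sign turned, at 0.24, once wild-type replicate 1 was omitted, and mutant replicate 2 left it at -0.04. Such fits hold unequal replicate numbers per genotype, so they cannot separate the differences by genotype and by replicate number. An interferon gamma receptor chain, crfb13 (current symbol ifngr1l), was at 26.6 and 9.77 CPM in wild type against 21.2 and 5.24 CPM in mutant. Both genes, named here after their values were seen, were lower in the same libraries as stat3 and stat5.1.

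The remaining genes of the pathway were taken from 10 lists covering receptors, kinases, brakes, partners and targets. Of 158 distinct genes tested, 18 were called higher and 2 lower, beside 1.8% and 1.9% of all tested genes. Their median was 0.17 on the log2 scale. By the fits with and without the block and DESeq2 together, 6 were called higher and 0 lower, beside 0.522% and 0.574%. Lists and members were chosen with earlier results of these data known, and a few genes stand in more than 1 list.

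Upstream of the STATs, few receptor genes were called. Over all tested genes 1.8% were called higher and 1.9% lower. Among 7 interferon receptor genes 1 was called higher, crfb17 (ifngr1), at 1.63 and 0.66 CPM in wild type against 6.65 and 2.17 CPM in mutant (log2 fold change 1.90 ± 0.49 SE, edgeR adjusted p = 0.0151). It rested on 5 to 65 reads per library and was not called by DESeq2 (adjusted p = 0.391). Leaving out mutant replicate 1 gave 0.88 and leaving out wild-type replicate 2 gave 1.41, neither called, and leaving out wild-type replicate 1 gave 2.69. The abundant chains crfb6 (ifngr2) and crfb5 (il10rb) were not called, at 0.53 ± 0.20 and 0.41 ± 0.21. Of 30 other cytokine receptors coupled to STATs, 1 was called higher, a gene listed as OSMR (2 of 3), current symbol lifrb, a chain of the interleukin 6 receptor group. It was at 32.7 and 20.7 CPM in wild type against 73.3 and 51.4 CPM in mutant (1.23 ± 0.20, edgeR adjusted p = 1.25e-04). Without wild-type replicate 2 its log2 fold change was 0.92 and without mutant replicate 1 it was 0.94, and it was called in neither fit. The abundant receptors il12rb2l (interleukin 12 group) and ghrb (growth hormone) were at 0.08 ± 0.21 and -0.47 ± 0.21, not called.

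None of the 5 JAK genes, which phosphorylate the STATs, was called with edgeR on all 4 libraries. At an unadjusted p under 0.05, 0 were higher and 1 was lower, beside 8.73% and 8.37% of all tested genes. The list median was -0.26. jak2a, the kinase of the erythropoietin and thrombopoietin receptors, was at 246 and 202 CPM in wild type against 177 and 109 CPM in mutant. Both mutant values were below both wild-type values, but the gene did not pass the test (-0.68 ± 0.24 SE, edgeR adjusted p = 0.0889). Leaving out mutant replicate 1 gave a call as lower (-1.05, edgeR adjusted p = 0.0174) and leaving out mutant replicate 2 gave -0.34. Its paralog jak2b stood at 70.3 and 71.9 CPM in wild type against 69.2 and 73.1 CPM in mutant. The log2 fold changes of jak1, jak3 and tyk2 were 0.19 ± 0.22, -0.26 ± 0.20 and -0.36 ± 0.23, with edgeR adjusted p-values of 0.746, 0.598 and 0.463.

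Among the brakes on STATs, 12 SOCS genes held 1 called higher and 1 called lower, beside 1.8% and 1.9% of all tested genes. Their median was -0.33. socs1, an inhibitor of JAKs in interferon signaling, was at 3.77 and 2.64 CPM in wild type against 8.70 and 8.22 CPM in mutant (1.40 ± 0.33 SE, edgeR adjusted p = 0.00800). socs8 (current symbol cishb, a SOCS family gene whose mammalian relative CISH is induced by STAT5) was at 6.22 and 6.33 CPM in wild type against 3.07 and 1.99 CPM in mutant (-1.33 ± 0.37, edgeR adjusted p = 0.0271). Neither call was made by DESeq2, where the adjusted p was 0.315 for socs1 and 0.511 for socs8. With each library left out in turn, socs1 was called in 0 of 4 fits and socs8 only without mutant replicate 1. The STAT3-induced pair socs3a and socs3b was not called, at -0.30 ± 0.25 and 0.17 ± 0.21. Of 13 PIAS, phosphatase and other inhibitor genes 0 were called with edgeR, with 3 higher and 0 lower at an unadjusted p under 0.05. That level was reached by 8.73% of all tested genes as higher and by 8.37% as lower. PTPN6, the phosphatase SHP-1, was at 0.72 ± 0.22 (edgeR adjusted p = 0.0494), under the fold threshold, and ptprc (CD45) at 0.17 ± 0.26. Of 8 partners and coactivators 0 were called, with 2 higher and 0 lower at an unadjusted p under 0.05, beside the same 8.73% and 8.37%. The abundant members NMI and kpna1 were at -0.07 ± 0.20 and 0.15 ± 0.21.

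**Figure D5:**
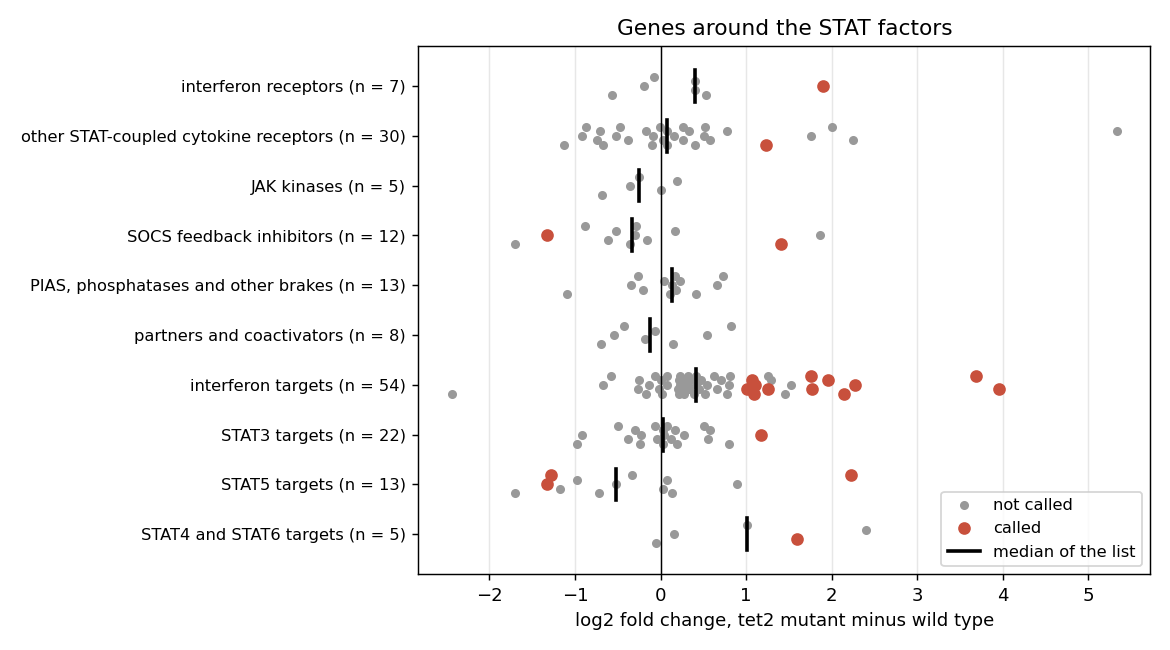
Log2 fold change, tet2 mutant minus wild type, of each tested gene in the 10 lists around the STAT factors, with called genes in red, other genes in grey and the list median as a black bar. In the interferon target list 12 of 54 genes are red and all of these lie to the right of 0. The lists of receptors, kinases, brakes and other targets each hold 0 or 1 gene called higher and 0 to 2 called lower.

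Downstream, the interferon targets formed the longest list. Of 54 tested, 12 were called higher and 0 lower, beside 1.8% and 1.9% of all tested genes. Their log2 fold changes had a median of 0.42, and 45 were positive, beside a median of -0.01 and 8502 of 17242 positive over all tested genes. At an unadjusted p under 0.05, 22 were higher and 1 lower with edgeR, beside 8.73% and 8.37% of all tested genes. DESeq2 called 6 higher and 0 lower, beside 0.609% and 0.69%. EdgeR without the replicate block also called 6 higher and 0 lower, beside 121 and 137 of 17242 tested genes. The 4 with the smallest adjusted p were the antiviral GTPase mxc (1.43 and 2.11 CPM in wild type against 13.8 and 48.1 CPM in mutant), IFITM10 (current symbol ifitm1, 1.63 and 1.32 against 14.5 and 26.2 CPM), the galectin lgals9l1 (6.73 and 7.79 against 22.8 and 52.9 CPM) and the guanylate-binding protein gbp1 (17.7 and 13.5 against 43.7 and 109 CPM). Their log2 fold changes were 3.95 ± 0.32, 3.69 ± 0.33, 2.27 ± 0.25 and 2.14 ± 0.27 (SE, edgeR adjusted p = 1.21e-10, 2.03e-09, 1.50e-07 and 1.29e-06). All 4 were highest in mutant replicate 2, as stat1b was. The call of gbp1 was lost with robust fitting (edgeR adjusted p = 0.167) and in the newer form (0.0518). The other 8 called genes, named after their values were seen, were irf1b, mxf, psmb10, psmb9a, PARP14, gbp4, mxa and b2m, at log2 fold changes of 1.01 to 1.96. The abundant class II chaperone genes cd74a and cd74b were not called, at -0.13 ± 0.31 and 0.00 ± 0.30. In this list 38 of 54 genes were highest in mutant replicate 2, beside 28.7% of all tested genes. Without that library the list median was 0.23. The newer edgeR form called 3 higher and 0 lower, beside 0.516% and 0.626% of all tested genes.

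Targets of the other STATs were on shorter lists. Of 22 STAT3 targets, with a median of 0.03, 1 was called higher and 0 lower, beside 1.8% and 1.9% of all tested genes. This was mmp13a, a collagenase that also stands in the neutrophil marker list (1.17 ± 0.28 SE, edgeR adjusted p = 0.00855), and DESeq2 did not call it (adjusted p = 0.299). Its call was also lost without either wild-type library and without mutant replicate 2, at 0.85 to 1.45. The abundant cebpb and mcl1a were at -0.04 ± 0.32 and -0.24 ± 0.27. Of 13 STAT5 targets 1 was called higher and 2 were called lower, beside the same shares of all tested genes, with a median of -0.52. A transferrin receptor gene, TFRC (2 of 3), was at 15.8 and 7.39 CPM in wild type against 48.4 and 56.5 CPM in mutant (2.22 ± 0.25, edgeR adjusted p = 2.15e-07). The cyclin gene ccnd2a was at 34.2 and 17.6 CPM in wild type against 15.7 and 6.32 CPM in mutant (-1.29 ± 0.23, edgeR adjusted p = 4.46e-04), and its call was lost without the replicate block (adjusted p = 0.162). It was also lost on leaving out wild-type replicate 1 (-0.70) or mutant replicate 2 (-0.73), and leaving out mutant replicate 1 gave -2.04. The third call was socs8, above, and the abundant pim1 and tfr1a were at 0.07 ± 0.27 and -0.33 ± 0.22. Among 5 STAT4 and STAT6 targets arg2, an arginase gene, was higher, at 8.66 and 25.2 against 38.4 and 54.3 CPM (1.59 ± 0.23, edgeR adjusted p = 1.98e-05), without a call in the fit without the replicate block (adjusted p = 0.0823). It stood at 0.85 and was not called without wild-type replicate 1, and at 2.41 without wild-type replicate 2. gata3 and il13 were at 1.01 ± 0.35 and 0.15 ± 0.48, not called.

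The pattern of stat1b over the 4 libraries was then compared with that of 9439 genes with a mean of at least 5 CPM, as the root mean square difference of log2 values centred on each gene's mean, with a pseudocount of 0.1 CPM. This is a description over 4 libraries and not a test, and it says nothing of shared control. The nearest genes were PFKP (1 of 2), a phosphofructokinase gene, at 0.123, gng12a, a G protein subunit gene, at 0.140, CR384059.1 (current symbol olmf4l1) at 0.140, the thioesterase gene acot7 at 0.144 and zgc:92326 (current symbol lgals9l3), a galectin gene, at 0.153. PFKP (1 of 2), for example, was at 22.3 and 22.0 CPM in wild type against 44.9 and 79.8 CPM in mutant. Ranks were taken for only some of the called interferon targets: irf1b ranked 17, gbp1 58 and mxc 8558 among the 9439 genes. The values were centred but not scaled, so the size of a change enters the distance. With a log2 fold change of 3.95, mxc ranked behind stat3 (7652) and stat4 (8272), though it too was highest in mutant replicate 2. Its rank therefore does not show a different direction. The other STATs were farther from stat1b than irf1b and gbp1 were: stat1a ranked 1445 and stat2 2217, followed by stat6 at 5699. The rank of irf9 was 649.

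Cell type markers moved along with stat1b in part. The neutrophil sum was highest in mutant replicate 2, where stat1b was highest too. In that library 7 of 8 neutrophil markers were highest, beside 28.7% of all tested genes. In mutant replicate 1 the neutrophil sum was 3371 CPM, beside 3880 and 2622 CPM in the wild-type libraries, and stat1b was at 35.5 CPM. With edgeR, 6 of 8 neutrophil markers were higher and 0 lower at an unadjusted p under 0.05, beside 8.73% and 8.37% of all tested genes. Both mutant libraries were above both wild-type libraries for 3 of 8, beside 23.1% of all tested genes. Of the neutrophil markers 1 of 8 was called higher, and of the B cell markers 7 of 8 were called lower. Macrophage markers were called higher in 3 of 19 cases and lower in 5, beside 1.8% and 1.9% of all tested genes. These counts depended on the fit. B cell markers were called lower in 4 of 8 cases with DESeq2, without the replicate block and in the newer form. Macrophage markers called lower fell to 2, 2 and 3 in these fits, which called 119, 137 and 108 of 17242 tested genes lower. DESeq2 called 0 of the neutrophil markers higher, beside 0.609% of tested genes. With a library left out, the neutrophil median on the log2 scale ran from 0.21 (without mutant replicate 2) to 1.38 (without mutant replicate 1). B cell medians ran from -1.69 to -1.38 and macrophage medians from -0.15 to 0.17. The part of a changed cell mixture in the stat1b difference was not tested.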

How the data were processed

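Polyadenylated RNA of sorted kidney marrow cells was sequenced as single-end reads by the study, in 2 tet2 mutant and 2 wild-type libraries. The values deposited by the authors are a raw count of reads for each gene, not normalized, and 0 columns had no sample. Their processing notes name FastQC 0.10.1 for read quality, STAR 2.3.0 for alignment to Zv9, and bedtools 2.16.1, used with Ensembl gene models. How reads that map more than once or fall on either strand or on overlapping genes were treated was not given in the sources used here. Such genes and close paralogs are therefore uncertain. DNA methylation data were not analysed here. Groups and replicate numbers came from the labels.

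Genes with more than 5 reads over the 4 libraries (17242 of 32434) were tested with edgeR 4.0.16 (R 4.3.3) by its quasi-likelihood F-test, in the older form, two-sided, after TMM scaling, with genotype and replicate number as terms. This leaves 1 residual degree of freedom, so the variance of each gene was estimated in large part from other genes. P-values were adjusted over all tested genes by the Benjamini-Hochberg method. Calls required an adjusted p under 0.05 and a log2 fold change beyond 1 in either direction. The block, the filter and the thresholds follow the study, which used DESeq2. The SE was taken as the size of the log2 fold change divided by the square root of F. Calls by 3 fits joined this fit, DESeq2 1.42.0 with the block and edgeR without it. Further alternatives were the newer edgeR form, robust fitting, RLE size factors, other filters and each library left out. Fits with a library left out also dropped the replicate block. Dropping the block alone already lost calls, among them those of crfb17, socs1, socs8, mmp13a, ccnd2a, arg2 and b2m. Interferon targets called higher fell from 12 to 6 without the block. The difference by replicate number and its alternatives were added after the data were seen. The procedure was also run on simulated counts that held no difference by replicate number, with variance taken from the design without the block. That run therefore cannot show how well the fit with the block performs on these data.

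The members and the 10 pathway and 9 cell type lists were chosen with earlier results of these data known. The text names every member, every JAK, up to 4 called genes of each list with the smallest adjusted p, up to 2 uncalled genes with the highest mean CPM, the 5 nearest patterns to stat1b and tet2, and says where another gene is named. Current symbols came from a table matching 20769 gene identifiers.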

Additional observations from a re-analysis of the deposited data

How the results depend on the processing

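The edgeR fit with the replicate block leaves 1 residual degree of freedom, and the number of calls depended on the fit. Against 311 genes higher and 328 lower, DESeq2 with the block called 105 and 119, the newer edgeR form 89 and 108, and edgeR without the replicate block 121 and 137. Leaving out each library in turn gave 188 to 462 higher and 224 to 478 lower. The cause was not tested. The replicate numbers are shared by the genotypes, but the labels do not say that they pair libraries. The differences between replicates of the mutant and the wild type correlated at 0.066 over all tested genes, and at 0.165 over genes with a mean of at least 5 CPM. For stat1b, dropping the replicate block gave 1.69 (adjusted p = 0.0135) in place of 1.61. It kept its direction in all 11 alternatives and its call in 10. In the newer form the log2 fold change was 1.61 with an adjusted p of 0.0520, so that 0 members were called higher there. The other 7 members were called in 0 of 77 alternative values.

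Several small differences changed sign when a library was left out, in fits that also dropped the replicate block. The log2 fold change without each library in turn ran from -0.0059 to 0.54 for stat2, from -0.51 to 0.30 for stat3, from -0.72 to 0.21 for stat5.1, from -0.46 to 0.071 for stat5.2 and from -0.25 to 0.060 for stat6. It ran from -0.086 to 0.44 for jak1, from -0.042 to 0.039 for jak2b, from -0.80 to 0.020 for tyk2, from -1.81 to 0.41 for crfb13 and from -2.25 to 0.24 for csf3r. For jak2b, DESeq2 and RLE size factors each gave -0.0051, no filter -0.0085 and filterByExpr -0.018, against a value of 0.00. The differences of stat3, stat5.1, csf3r and crfb13 by replicate number kept their direction in all 6 alternatives, which were chosen after seeing the data. The uncalled members, at -0.41 to 0.29, lay under the fold threshold, so they could not have been called at any p.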
